A study of Mus musculus with 9 samples.

Results

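Neat1, Malat1 and the genes of 5 paraspeckle proteins, Sfpq, Nono, Pspc1, Rbm14 and Hnrnpk, were followed through total RNA of mouse Merkel cells and basal keratinocytes. These are 7 of the 49672 rows of the deposited expression table, matched by gene identifier. The genes were chosen by measured values: the difference between Merkel cells and basal keratinocytes in these libraries was known when the list was drawn up, so that difference is given here as a description, without a test. No threshold was part of the choice.

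All 9 libraries came from the epidermis of neonatal (P0, postnatal day 0) Sox2-GFP reporter mice, in which cells that express Sox2 are green. Merkel cells, touch-sensing cells of the epidermis, were sorted as GFP-positive and gave 3 libraries, 1 for each sample number. Basal keratinocytes, the dividing inner layer of the epidermis, were sorted as GFP-negative and positive for both SCA1 and CD49F, and gave 6 libraries: a first and a second for each of the same 3 numbers. Both groups carry the reporter, and no label says what first and second stand for, how many mice a library holds or whether libraries of a number share mice. The p-values below therefore measure only the spread between these libraries. Values are TPM, a level per transcript length whose sum is equal in all libraries.

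Neat1 is a long non-coding RNA that stays in the nucleus. Its long form is the scaffold of paraspeckles, nuclear bodies that hold back certain RNAs and proteins, and its short form shares the same start but does not build them alone. SFPQ and NONO bind and stabilise the long form, PSPC1 is their relative, RBM14 is needed for assembly of the body, and HNRNPK favours the long form over the short one by hindering early polyadenylation. Malat1 is the neighbouring gene, and its abundant nuclear RNA gathers in nuclear speckles, which store splicing factors.

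On the mm10 assembly, Malat1 lies on chromosome 19 from 5795690 to 5802672 and Neat1 from 5824708 to 5845478, both on the minus strand and 22035 bases apart, with Neat1 upstream. The GENCODE M21 annotation gives Neat1 a long transcript of 20771 bases in 1 exon, a short one of 3004 bases, and further transcripts of 1030 and 711 bases. The main Malat1 transcript has 6983 bases. The 3′ ends are shown because the long Neat1 transcript and the main Malat1 transcript share a pair of strings there that the short Neat1 transcript lacks. Capitals mark the U-rich string TTTTGCTTT and the A-rich string AAAAGCAAA (written with T as in the annotation). In these RNAs both strings are part of a larger element that folds into a triple helix. The helix protects an end made by RNase P instead of a poly(A) tail. The whole element was neither marked nor searched for, only this pair of strings.
Long Neat1 transcript, chr19:5824709-5824760, minus strand: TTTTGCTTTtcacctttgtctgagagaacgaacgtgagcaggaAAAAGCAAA
Main Malat1 transcript, chr19:5795983-5796027, minus strand: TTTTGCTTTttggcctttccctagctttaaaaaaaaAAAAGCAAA
In the short Neat1 transcript the capitals mark the polyadenylation hexamer AATAAA within its last 60 bases.
Short Neat1 transcript, chr19:5842307-5842366, minus strand: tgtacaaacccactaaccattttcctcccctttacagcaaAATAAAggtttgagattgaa

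The stretch of long Neat1 ends 1 base before the annotated end of the transcript, and that of Malat1 ends 293 bases before its annotated end. Of 141767 annotated transcripts, read on the transcript strand only, 2.61% held the U-rich string, 2.94% held the A-rich string and 0.00917%, or 13 transcripts of 11 genes, held the U-rich string followed by the A-rich one within 100 bases. The hexamer AATAAA stood in the last 40 bases of 25.8% of transcripts, the annotated main Malat1 transcript included, but not in those of long Neat1. The deposited table has 1 value per gene, so the long and short forms of Neat1 could not be told apart in what follows.

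The sort was checked against marker genes. All 7 Merkel cell markers were called higher in Merkel libraries, beside 6.79% of all genes. They summed to between 825 and 1099 TPM there, against 1.90 to 4.44 TPM in the basal group. These markers include Sox2, whose reporter defined the sort, so its call is no independent check. RNA of basal keratinocyte markers was present in both groups. Its summed level was 4517 to 5043 TPM in Merkel libraries, 15738 to 17200 TPM in first basal libraries and 12716 to 14186 TPM in second ones. These markers include Itga6, the gene of CD49F, which was itself sorted on. Which cells held this RNA in Merkel libraries was not tested. Suprabasal keratinocyte markers were abundant in all groups, at 4579 to 8820 TPM in Merkel, 4547 to 8469 TPM in first basal and 5079 to 8846 TPM in second basal libraries, and Krt1, a keratin of that layer, was highest in number 2 of each group, at 4695, 4312 and 4618 TPM. The first basal libraries stood apart by immune cell markers, which summed to 436 to 923 TPM there, to 30.3 to 226 TPM in second basal libraries and to 32.0 to 123 TPM in Merkel libraries. Ptprc, the leukocyte gene for CD45, was at 56.9, 21.5 and 39.7 TPM in first basal libraries and at 1.84 to 4.67 TPM in the others, while the T cell gene Cd3e was near 0, at a mean of 0.187 TPM in Merkel and 0.143 TPM in basal libraries. Melanocyte markers summed to 15.8 to 34.3 TPM in first basal, 105 to 152 TPM in second basal and 150 to 211 TPM in Merkel libraries. Fibroblast and dermal papilla markers summed to 36.1 to 103, 102 to 253 and 175 to 269 TPM in the same order. Of the latter, 5 of 6 tested genes were called higher in Merkel libraries, beside 6.79% of all genes. Mean levels in Merkel and basal libraries were 29.9 and 0.965 TPM for Col3a1 and 9.06 and 0.12 TPM for Corin. Dcn, the most abundant, was at 135 and 124 TPM and was not called. Since markers differed between first and second basal libraries, the difference of each of the 7 genes is also given against each of them. Both comparisons share the Merkel libraries. The part of these other cells in the differences was not tested. In bulk RNA, fewer cells of a type and less RNA per cell cannot be told apart.

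Neat1 was far lower in Merkel cells than in basal keratinocytes. Its level was 11.9, 11.7 and 14.0 TPM in Merkel libraries 1 to 3, 134, 70.3 and 104 TPM in the first basal libraries and 111, 124 and 99.1 TPM in the second ones. The groups did not come near each other: the highest Merkel library was at 14.0 TPM and the lowest basal library, the first of number 2, at 70.3 TPM. The mean was 12.5 ± 1.26 TPM (SD, n = 3) in Merkel cells and 107 ± 13.5 TPM (SD, n = 3 numbers, each the mean of its 2 libraries) in basal keratinocytes, so Merkel cells held 11.7% of the basal level. On the log2(TPM + 1) scale the Merkel minus basal difference was −2.97 ± 0.14 (SE), the 4th lowest of the 13822 genes tested. It was −2.89 ± 0.22 against the first and −3.05 ± 0.13 against the second basal libraries, and −3.25, −2.89 and −2.78 within numbers 1, 2 and 3. Among tested genes Neat1 stood at the 94.7th percentile of level in basal keratinocytes and at the 58.0th in Merkel cells.

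Malat1 was also lower in Merkel cells, by a smaller factor and from a much higher level. Merkel libraries 1 to 3 held 768, 524 and 668 TPM, first basal libraries 2066, 1125 and 1690 TPM, and second basal libraries 2269, 1382 and 1925 TPM. Every Merkel library was below every basal library, and number 2 was the lowest of its group in all 3 groups. The mean was 653 ± 123 TPM in Merkel cells and 1743 ± 460 TPM in basal keratinocytes (SD, n = 3 each), which puts Merkel cells at 37.5% of the basal level. The difference was −1.39 ± 0.23 on the log2 scale, −1.29 ± 0.25 against the first and −1.49 ± 0.22 against the second basal libraries, and −1.49, −1.25 and −1.43 within the 3 numbers. Even in Merkel cells Malat1 stayed at the 98.9th percentile of level among tested genes.

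**Figure D1:**
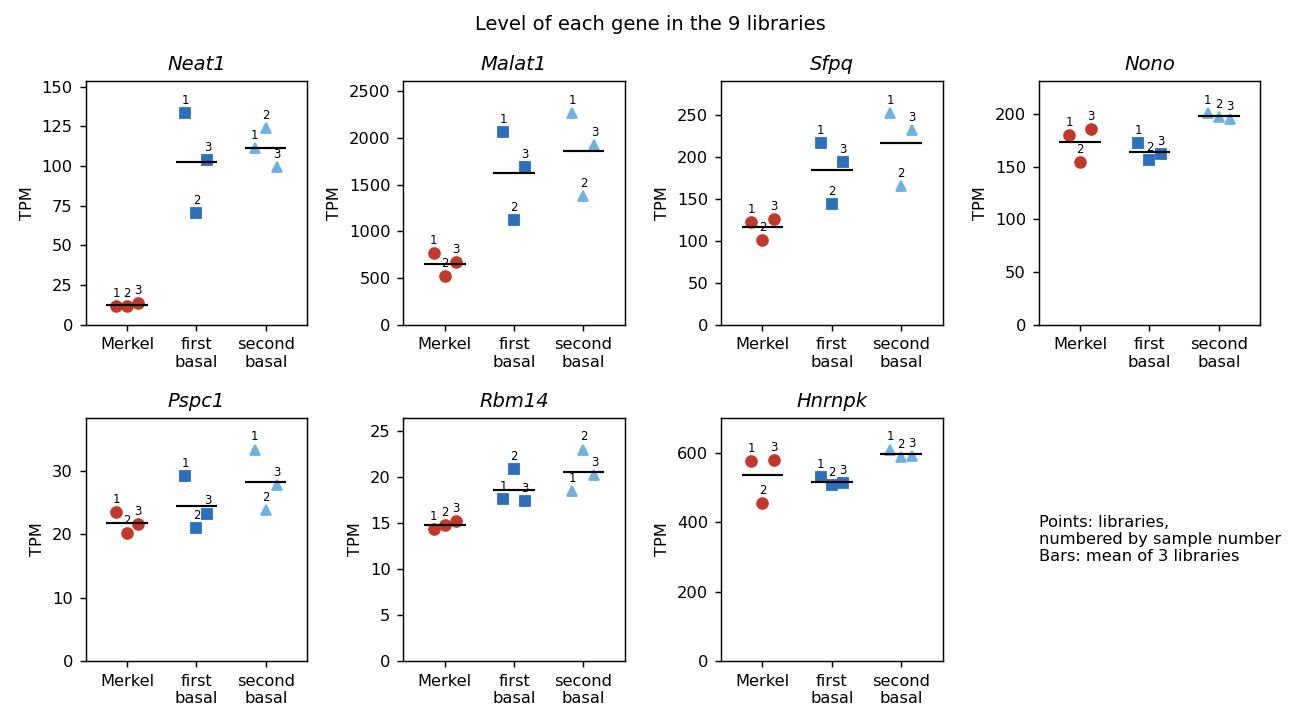
Level in TPM of Neat1, Malat1, Sfpq, Nono, Pspc1, Rbm14 and Hnrnpk in each of the 9 libraries; points are libraries, labelled by sample number, in the Merkel, first basal and second basal groups, and the horizontal line is the group mean, with each vertical axis starting at 0. Neat1 sits at 11.7 to 14.0 TPM in Merkel libraries, against 70.3 to 134 TPM in basal ones, whereas Hnrnpk spans 455 to 580 TPM and 507 to 609 TPM.

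A total RNA library also holds small, structural and mitochondrial RNAs, and these together took 45.7%, 53.4% and 43.1% of all TPM in Merkel libraries 1 to 3 against 40.6% to 46.1% in basal libraries. Left out of the total, Malat1 made up 0.112% to 0.142% of the remaining TPM in Merkel libraries, against 0.205% to 0.405% in basal ones, which still did not overlap. The 7SK RNA alone took 18.8% to 23.1% in Merkel libraries, against 11.7% to 17.2% in basal ones. The median log2 difference of all tested genes was −0.15, and 0.01 after each library was scaled by its median ratio, so small negative differences below are close to the middle of all genes. A gene is said to be called when limma's adjusted p is under 0.05 and the log2 difference is at least 1 in size: 5.27% of tested genes were called lower in Merkel cells. Of the 7 genes, 2 met that rule, Neat1 and Malat1; since these values chose the genes, nothing is read from that count.

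Neat1 was lower by a larger factor than Malat1, so the balance of the 2 neighbouring transcripts differed between the groups. Per TPM of Neat1 there were 64.6, 44.8 and 47.8 TPM of Malat1 in Merkel libraries 1 to 3, 15.5, 16 and 16.2 in first basal libraries and 20.4, 11.2 and 19.4 in second basal libraries. The lowest Merkel ratio was above the highest basal ratio, and the means were 52.4 ± 10.6 and 16.4 ± 2.48 (SD, n = 3 each). The first basal libraries were close together in this ratio, although Malat1 itself ranged from 1125 to 2066 TPM among them. The Merkel minus basal difference of the log2 ratio of Neat1 to Malat1 was −1.68 without a pseudocount and −1.58 with a pseudocount of 1.

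Sfpq, Nono and Pspc1 encode the related proteins that bind the Neat1 scaffold in pairs. Sfpq was lower in Merkel cells: the Merkel libraries held 122, 100 and 126 TPM, the first basal libraries 217, 143 and 194 TPM and the second ones 252, 165 and 232 TPM. The groups did not overlap, and number 2 was again the lowest of each group. The means were 116 ± 13.6 and 201 ± 41.8 TPM (SD, n = 3 each), 57.8% of the basal level, and the log2 difference was −0.77 ± 0.18, with −0.65 ± 0.18 against first and −0.88 ± 0.18 against second basal libraries. Nono was nearly level, at 180, 154 and 186 TPM in Merkel, 172, 157 and 162 TPM in first basal and 201, 197 and 195 TPM in second basal libraries. The Merkel libraries of Nono overlapped the first basal libraries and lay below all 3 second ones. Its means were 173 ± 16.8 and 181 ± 5.16 TPM, and its log2 difference was −0.06 ± 0.12, 0.08 ± 0.12 against first, −0.19 ± 0.12 against second basal libraries and 0.13 with median-ratio scaling, so no direction is given for it.

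Pspc1 was the least abundant of the 3, at 23.5, 20.2 and 21.5 TPM in Merkel, 29.2, 21 and 23.25 TPM in first basal and 33.3, 23.8 and 27.7 TPM in second basal libraries. The Merkel and first basal libraries overlapped, and the Merkel libraries lay below all second ones. The log2 difference was −0.25 ± 0.14, from −0.15 ± 0.15 against first to −0.35 ± 0.15 against second basal libraries, and −0.08 with median-ratio scaling. Its means were 21.7 ± 1.69 and 26.4 ± 4.51 TPM (SD, n = 3 each).

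The 3 related transcripts differed in make-up. Their sums overlapped between the groups, but within each number the Merkel sum was below both basal sums. Together they reached 326, 275 and 333 TPM in Merkel libraries 1 to 3. The first basal libraries held 418, 321 and 380 TPM and the second ones 487, 386 and 455 TPM. The means were 311 ± 31.7 TPM in Merkel cells and 408 ± 50.4 TPM in basal keratinocytes (SD, n = 3 each). Sfpq made up 37.2% ± 0.626 of the sum in Merkel cells and 48.9% ± 4.51 in basal keratinocytes, Nono 55.8% ± 0.400 and 44.7% ± 4.65, and Pspc1 7.01% ± 0.471 and 6.46% ± 0.415 (SD, n = 3 each). There was more Nono than Sfpq in all 3 Merkel libraries, with Nono to Sfpq ratios of 1.48, 1.54 and 1.48, whereas the basal ratios were 0.793, 1.09 and 0.835 in first and 0.797, 1.2 and 0.843 in second libraries. Number 2 was the only basal number above 1. For each 1000 TPM of the 3 transcripts there were 36.5 to 42.5 TPM of Neat1 in Merkel libraries, against 218 to 321 TPM in basal ones.

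**Figure D2:**
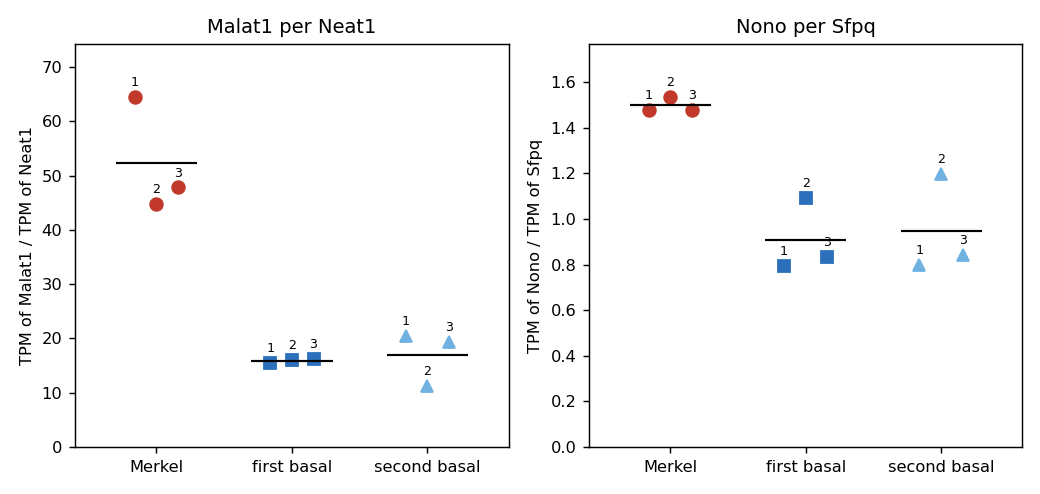
Ratios within each of the 9 libraries: TPM of Malat1 per TPM of Neat1 (left) and TPM of Nono per TPM of Sfpq (right); points are libraries labelled by sample number and horizontal lines are group means. Merkel libraries hold 44.8 to 64.6 TPM of Malat1 per TPM of Neat1 and basal libraries 11.2 to 20.4.

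Rbm14 and Hnrnpk encode the other 2 proteins. Rbm14 held 14.35, 14.8 and 15.2 TPM in Merkel, 17.6, 20.9 and 17.4 TPM in first basal and 18.45, 23.0 and 20.2 TPM in second basal libraries. The groups did not overlap, and in contrast to Malat1 and Sfpq number 2 was the highest basal number. Its means were 14.8 ± 0.426 and 19.6 ± 2.08 TPM (SD, n = 3 each), and the log2 difference was −0.38 ± 0.12, −0.31 ± 0.12 against first and −0.44 ± 0.13 against second basal libraries, and −0.20 with median-ratio scaling. Hnrnpk was the most abundant of the 5 protein genes, at 576, 455 and 580 TPM in Merkel, 530, 507 and 512 TPM in first basal and 609, 588 and 589 TPM in second basal libraries. As with Nono, the Merkel libraries overlapped the first basal libraries and lay below the second ones. The means were 537 ± 70.7 and 556 ± 12 TPM (SD, n = 3 each), and the log2 difference was −0.06 ± 0.14, 0.05 ± 0.14 against first, −0.16 ± 0.15 against second basal libraries and 0.13 with median-ratio scaling, so no direction is given for it either.

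**Figure D3:**
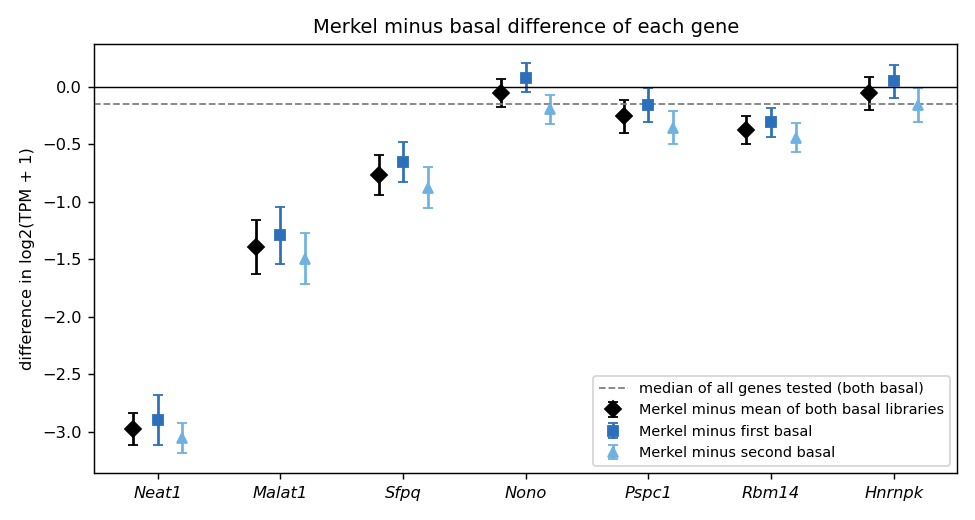
Merkel minus basal difference in log2(TPM + 1) of each of the 7 genes, as the limma estimate with its SE (n = 3 each), beside the differences against the first and the second basal libraries alone; the horizontal lines mark 0 and the median of all tested genes. Neat1 (−2.97) and Malat1 (−1.39) lie furthest below the median of −0.15, and Nono and Hnrnpk (−0.06 each) lie just above it.

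The order of levels per length followed from these values. In Merkel cells it ran from Malat1 and Hnrnpk, whose libraries overlapped, through Nono, Sfpq and Pspc1 to Rbm14 and then Neat1, with no overlap between these. Neat1 and Rbm14 were nearest there, at up to 14.0 and from 14.35 TPM. In basal keratinocytes the order was Malat1, Hnrnpk, then Sfpq and Nono, which overlapped each other, then Neat1, then Pspc1 and Rbm14, which again overlapped. All 3 Merkel libraries lay below all 6 basal libraries for 4 of the 7 genes, Neat1, Malat1, Sfpq and Rbm14, where 26.2% of all tested genes showed that pattern; this count also rests on the values that chose the genes.

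The second basal libraries were compared with the first, a contrast that played no part in the choice of genes. None of the 7 genes was called by limma (0 of 7, against 3.55% of all tested genes), and at any size 0 of 7 reached an adjusted p under 0.05, against 7.29% of all genes; 2 of 7 had an unadjusted p under 0.05, against 21.3% of all genes. The second library was above the first in all 3 numbers for 6 of the 7 genes, a pattern of 36.7% of tested genes, with Neat1 the exception. The median of all genes was 0.06. Nono had the largest difference, 0.22, 0.33 and 0.27 on the log2 scale in numbers 1 to 3, with a mean of 0.27 ± 0.07 (limma adjusted p = 0.0759). The fit above leaves out the shared sample numbers. With the sample number as a block the limma adjusted p of Nono was 0.0266. That of Sfpq, whose mean difference was 0.22 ± 0.21 without the block, went from 0.623 to 0.0348. In the blocked fit 2 of 7 thus had an adjusted p under 0.05 at any size, beside 15.3% of all genes.

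Malat1 differed by 0.21 ± 0.28 between second and first basal libraries (adjusted p = 0.747, and 0.114 with the block), Pspc1 by 0.20 ± 0.17 (0.571 and 0.0768), Hnrnpk by 0.20 ± 0.08 (0.21 and 0.0514) and Rbm14 by 0.13 ± 0.12 (0.601 and 0.218). Neat1 differed by 0.16 ± 0.23 (adjusted p = 0.764, and 0.653 with the block) and went in different directions in the 3 numbers, with −0.26, 0.81 and −0.07. Its lowest basal library, the first of number 2, decided the sign: without number 2 the mean difference was −0.17. Immune markers were lower and melanocyte markers higher in second libraries, as given above, and their part in these differences was not tested.

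Across the 6 basal libraries, Malat1 and Sfpq moved together (Pearson r = 0.98), as did Nono and Hnrnpk (r = 0.99) and Malat1 and Pspc1 (r = 0.93), while Malat1 and Rbm14 went opposite ways (r = −0.65). Neat1 was less tied to Malat1 within basal libraries (r = 0.63) than over all 9 libraries (r = 0.93), where the difference between the cell types enters. These are descriptions over 6 or 9 libraries that share sample numbers and total RNA composition, and no test is attached.

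The genes whose log2 levels most resembled Neat1 over the 9 libraries, with predicted genes and small RNAs set aside, were Farp2 (r = 0.997), Atp2b4 (r = 0.995), Mdm4, Scaf4 and Kcnq1ot1 (r = 0.993 each). Atp2b4, a plasma membrane calcium pump, was at 22.9 to 23.4 TPM in Merkel libraries, against 45.4 to 57.3 TPM in basal ones. Mdm4, an inhibitor of p53, was at 12.9 to 14.7 and 29.1 to 34.6 TPM, and Kcnq1ot1, an imprinted nuclear RNA, at 0.430 to 0.540 and 1.36 to 1.91 TPM. All 5 had a smaller difference than Neat1, from −0.79 for Scaf4 to −1.16 for Mdm4. For Malat1 the list was Bmpr1b (r = 0.996), Uvssa (r = 0.996), Clk1 (r = 0.994), Luzp1 and Itga3 (r = 0.993 each). Bmpr1b, a BMP receptor, was at 2.18 to 3.88 TPM in Merkel libraries, against 6.11 to 13.9 TPM in basal ones, and Itga3, an integrin of keratinocytes, at 17.2 to 27.2 and 36.9 to 64.8 TPM. Each of these genes shares with its partner the step between cell types, which alone gives a high r over 9 libraries.

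The gene lists below were drawn up with earlier results of these data known. Their counts and p-values are therefore descriptions and not independent tests. Genes of 30 other paraspeckle proteins moved less than the 2 RNAs. By limma 0 of the 29 tested were called in either direction, where 5.27% of all genes were called lower and 6.79% higher. With an unadjusted p below 0.05, 17 were lower and 1 was higher in Merkel cells, where 49.6% of all genes passed in either direction. At any size 12 of 29 fell with an adjusted p under 0.05 and 0 rose, where 28.5% of all tested genes fell and 13.2% rose. With median-ratio scaling the counts were 9 and 1, beside 22.5% and 22.3% of all genes. Without basal number 1 or basal number 3 the count that fell was 6, or 20.7%, near the 21.7% and 20.6% of all genes then. It was 13 without Merkel library 1 or without basal number 2, beside 25.0% and 26.3%. Against the first basal libraries alone it was 7, beside 24.7%, and against the second ones 16, beside 27.7%. With the sample number as a block 17 fell and 2 rose, beside 34.7% and 16.2% of all genes. Their median difference was −0.36, beside −0.15 for all genes. The largest falls, named after their values were seen, were in Taf15 (−0.86, limma adjusted p = 0.000998), Hnrnph1 (−0.82, adjusted p = 0.000851) and Ahdc1 (−0.77, adjusted p = 0.0108); TAF15 is an RNA-binding protein and HNRNPH1 a splicing regulator. The most abundant member was Rbm3, a cold-induced RNA-binding protein, at 724 ± 151 TPM in Merkel and 664 ± 98.5 TPM in basal libraries (SD, n = 3 each), a difference of 0.11 ± 0.20 (adjusted p = 0.685).

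Genes of nuclear speckle proteins, the surroundings of Malat1 RNA, lay below the middle of all genes. All 20 tested had a difference below 0, where 64.2% of all genes did, with a median of −0.43, and 12 fell with an adjusted p under 0.05 at any size, beside 28.5% of all genes. With median-ratio scaling 18 were below 0 (48.9% of all genes), 10 fell (22.5% of all genes) and the median was −0.25. Without basal number 1 or basal number 3 the count that fell was 8, or 40%, beside 21.7% and 20.6% of all genes. It was 13 without basal number 2, beside 26.3%, and 15 with the sample number as a block, beside 34.7%. Called lower were 2 of 20, beside 5.27% of all genes. Srrm2, a core scaffold of speckles, was at 34.95, 33.5 and 35.8 TPM in Merkel libraries, against 69.8 to 97.9 TPM in basal ones, a difference of −1.31 ± 0.12 (adjusted p = 6.00e-05). Clk1, a kinase that releases splicing factors from speckles, was at 66.7, 47.6 and 59.7 TPM in Merkel libraries, against 94.5 to 142 TPM in basal ones. Neither gene overlapped between the groups. The Clk1 difference was −1.07 ± 0.17 (adjusted p = 0.0014). It was smaller than 1 in size, and so not called, under 5 alternatives: −0.89 with median-ratio scaling, −0.94 with quantile normalization, −0.98 without mitochondrial and small RNA genes, −0.97 without basal number 1 and −0.94 without Merkel library 2. Srsf5, the most abundant member, was at 235 ± 33.5 and 306 ± 47.4 TPM, with −0.38 ± 0.16 (adjusted p = 0.095).

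RNase P cuts the 3′ ends of Malat1 and long Neat1. Of 12 genes, those of its subunits with Elac2 and Mettl16 added, 11 were tested and limma called 0. Of all genes, 5.27% were called lower and 6.79% higher. With an unadjusted p below 0.05, 1 was lower and 1 higher, where 49.6% of all genes passed in either direction. At any size 1 fell with an adjusted p under 0.05 and 0 rose. The gene that fell, named after its value was seen, was Pop1 (−0.50, limma adjusted p = 0.0128). Over all genes 28.5% fell and 13.2% rose by that rule. The median was −0.08, and 0.10 with median-ratio scaling. Pop5, the most abundant, was at 33.3 ± 3.12 TPM in Merkel and 34.2 ± 5.79 TPM in basal libraries, a difference of −0.02 ± 0.14 (adjusted p = 0.92).

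Other long non-coding RNAs went both ways. Of 18, 14 were tested. Of these, 1 was called lower and 2 higher, where 5.27% of all tested genes were called lower and 6.79% higher. The count called lower was 2 with quantile normalization, without mitochondrial and small RNA genes and with a pseudocount of 0.1. At any size 4 fell and 2 rose with an adjusted p under 0.05. These shares, 28.6% and 14.3%, were near the 28.5% and 13.2% of all genes. Miat, a nuclear RNA known from neurons, was at 24.0, 14.3 and 18.7 TPM in Merkel libraries, against 0.830 to 1.35 TPM in basal ones, a difference of 3.29 ± 0.18 (adjusted p = 2.60e-06). Rian, an imprinted RNA of the Dlk1-Dio3 region, was at 28.5, 13.0 and 22.5 TPM in Merkel libraries, against 0.750 to 7.58 TPM in basal ones (2.59 ± 0.41, adjusted p = 0.00123), with 2.99 ± 0.33 against first and 2.18 ± 0.50 against second basal libraries. Firre, a nuclear RNA from the X chromosome, moved in the direction of Malat1, from 20.3 to 27.0 TPM in basal libraries to 12.2, 5.97 and 9.42 TPM in Merkel libraries (−1.35 ± 0.22, adjusted p = 0.00143). Gas5, the most abundant, was at 232 ± 38.4 and 304 ± 32.9 TPM (−0.40 ± 0.16, adjusted p = 0.0757). The median of the 14 was −0.32, beside −0.15 for all genes.

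**Figure D4:**
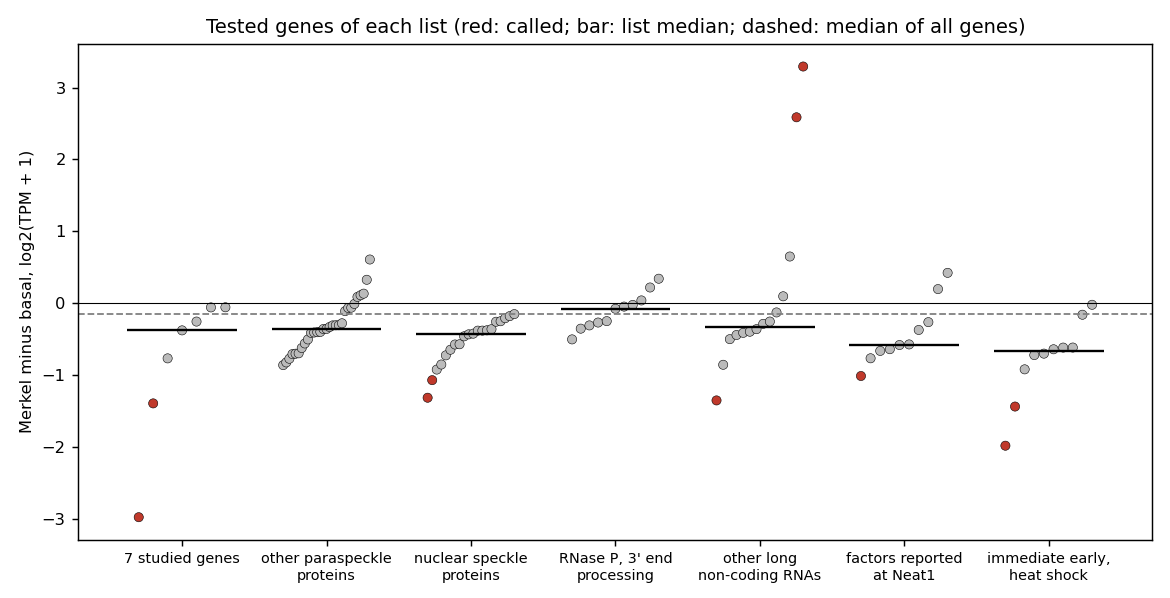
Merkel minus basal difference in log2(TPM + 1) of every tested gene in 7 lists; each point is a gene, red points are called, short bars are list medians and the dashed line is the median of all tested genes, −0.15. Paraspeckle and speckle protein genes lie mostly below the line, with medians of −0.36 and −0.43, and Miat (3.29) and Rian (2.59) stand highest among the long non-coding RNAs.

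Among 10 transcription factors reported to act at Neat1, 7 fell and 1 rose with an adjusted p under 0.05 at any size, and the median was −0.58; over all genes 28.5% fell and 13.2% rose. With median-ratio scaling 5 fell and 2 rose, beside 22.5% and 22.3% of all genes. Quantile normalization gave the same counts, beside 27.0% and 19.4%. Without mitochondrial and small RNA genes 6 fell and 2 rose, beside 28.3% and 18.7%. With a pseudocount of 0.1 or 5, without a level filter or with the 5 TPM filter, 0 rose. The same held against the first basal libraries alone, without Merkel library 1 or 3, and without basal number 1, 2 or 3. Only Nfkb1, an NF-κB subunit, was called: 28.5, 27.75 and 31.2 TPM in Merkel libraries, against 56.9 to 63.0 TPM in basal ones, a difference of −1.01 ± 0.11 (adjusted p = 0.000131), and its call was lost in 8 alternatives, among them median-ratio scaling (−0.83) and leaving out Merkel library 1, Merkel library 2 or basal number 1 (−0.995, −0.978 and −0.995). Stat3, the most abundant, went the other way, at 71.1 ± 13.0 and 52.2 ± 3.06 TPM (0.42 ± 0.15, adjusted p = 0.0498). The hypoxia factor Hif1a was at 49.6 and 43.1 TPM (0.20, adjusted p = 0.165) and the heat shock factor Hsf1 at 7.76 and 12.7 TPM (−0.64, adjusted p = 0.0129); these were named after their values were seen.

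Immediate early and heat shock genes, which rise within minutes of cell stress and dissociation, had a median difference of −0.67: 10 of 10 were below 0, 8 of 10 with median-ratio scaling, where 64.2% and 48.9% of all genes were. At any size 4 of 10 fell with an adjusted p under 0.05, beside 28.5% of all genes. The count was 2 without basal number 1 or basal number 3, beside 21.7% and 20.6% of all genes. Without Merkel library 2 or Merkel library 3 it was again 2, beside 23.8% and 26.4%. It was 7 without Merkel library 1 and 8 without basal number 2, beside 25.0% and 26.3%. Against the first basal libraries alone it was 2, beside 24.7%, and against the second ones 6, beside 27.7%. With the sample number as a block it was 8, beside 34.7%. Called lower were 2 of 10, beside 5.27% of all genes. Fosb was at 78.5, 54.8 and 67.3 TPM in Merkel libraries, against 210 to 300.4 TPM in basal ones, which did not overlap (−1.98 ± 0.15, adjusted p = 2.04e-05). Atf3 was at 209, 53.85 and 139 TPM and 162 to 439 TPM, which did overlap (−1.44 ± 0.45, adjusted p = 0.0306), and its call was lost in 7 alternatives, among them median-ratio scaling (adjusted p = 0.0599) and leaving out Merkel library 2 (0.0733), Merkel library 3 (0.069), basal number 1 (0.0578) or basal number 3 (0.0877). Fos, the most abundant, was at 880 ± 299 and 1395 ± 276 TPM (−0.70 ± 0.28, adjusted p = 0.073). Any part of dissociation or sorting in the Neat1 difference was not tested.

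The genes around Neat1 and Malat1 differed less. The annotation has 22 other genes with a base within 100 kb of either; 15 were tested, and limma called 0 of them, while 7 had an unadjusted and 6 an adjusted p below 0.05; over all genes the shares were 49.6% and 41.7%. Of the 15, 10 were below 0 and 5 above, where 64.2% of all genes were below 0, so the neighbours were near the background. Frmd8, the nearest tested gene upstream of Neat1 and read in the same direction, was at 8.04 TPM in Merkel and 9.21 TPM in basal libraries (−0.17 ± 0.14, adjusted p = 0.374). Ehbp1l1 had the lowest value of the 15, −0.96 ± 0.14 (adjusted p = 0.000812), and Tigd3 the highest, 0.88 ± 0.14 (adjusted p = 0.0011).

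The pattern of Ehbp1l1 was unlike that of Neat1, with high values in the first basal libraries alone: 8.72, 4.95 and 6.39 TPM in first basal libraries, 1.53, 1.93 and 1.55 TPM in second ones and 1.58, 1.05 and 1.29 TPM in Merkel libraries. Its second minus first difference was −1.5 (adjusted p = 0.00815) and that of Slc25a45 was −1.34 (adjusted p = 0.00466), both called lower. Slc25a45 was at 3.43, 3.12 and 4.07 TPM in first and 0.84, 0.85 and 0.68 TPM in second basal libraries. Both genes were thus lower in the second library of every number. Without number 1, and likewise without number 3, 0 of all tested genes were called lower in that contrast. Those fits therefore cannot tell whether these calls rest on 1 number. Further tested neighbours were Pola2 (−0.57), Ltbp3 (−0.53), Slc25a45 (−0.40), Dpf2 (−0.32), Map3k11 (−0.25), Sssca1 (−0.05), Kcnk7 (0.03), Fam89b (0.17), Gm42067 (0.31) and Cdc42ep2 (0.54), with Gm27533, a small RNA inside Neat1, at −0.75 ± 1.17.

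**Figure D5:**
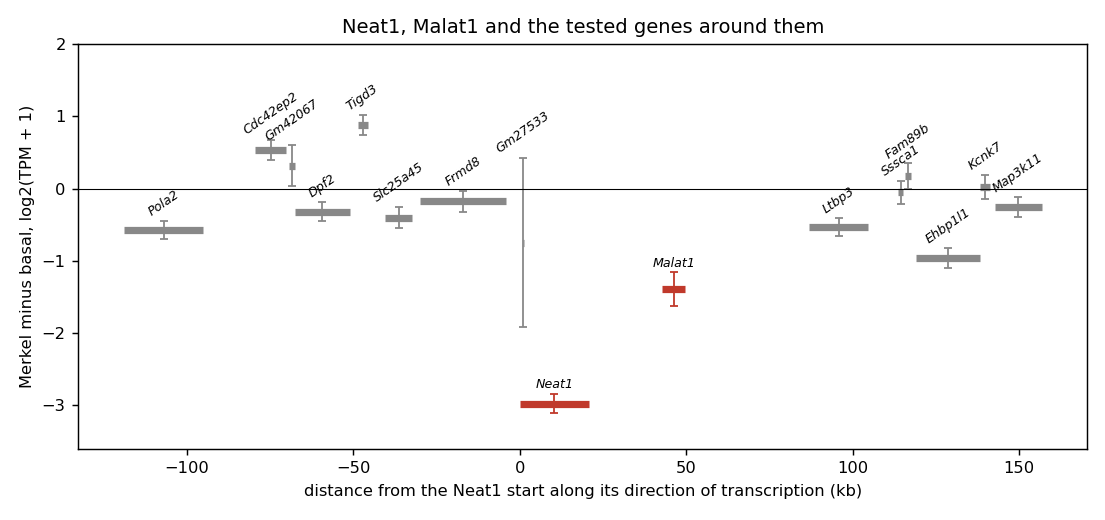
Merkel minus basal difference in log2(TPM + 1), with SE, of Neat1, Malat1 and the tested genes named above within 100 kb, by distance in kb from the start of Neat1 along its direction of transcription; each horizontal bar spans a gene. Neat1 (−2.97) and Malat1 (−1.39), in red, are the lowest, and the protein-coding neighbours drawn lie between −0.96 and 0.88.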

How the data were processed

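Total RNA was sequenced as paired reads of 125 bases from libraries made with a strand-marking kit, per the labels' protocols. The authors made the deposited TPM values (transcript levels per length, with a fixed sum) with Trimmomatic, STAR and RSEM on mm10, per the submitters' processing notes; the annotation, the strand setting and the read totals are not given, so depth is unknown and no counting interval is printed. A gene-level TPM from RSEM shares out reads between overlapping genes and depends on the transcript lengths assumed, which bears on Neat1.

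From the TPM, log2(TPM + 1) was fitted with limma 3.58.1 (R 4.3.3, trended variance, Benjamini-Hochberg adjustment). In Merkel against basal, the first and second basal library with the same number were replaced by their log2 mean, giving 3 values against 3; second against first basal compared 3 libraries with 3. Genes needed at least 1 TPM in 3 of the 6 values, which left 13822. Fold changes on this scale understate those of low genes. The fits were tested on simulated data. The genes and lists were chosen with earlier results of these data known. Of each list, the text names up to 3 called genes with the largest difference and the most abundant gene; it also names the tested genes within 100 kb, apart from 1 that is not reported here, and the 5 genes most correlated with Neat1 and with Malat1. Sequences and positions came from GENCODE M21 (mm10).

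The sample numbers paired the libraries: deviations from the group means over all tested genes correlated at 0.385, 0.357 and 0.202 between Merkel and basal libraries of a number, and at 0.474, 0.532 and 0.376 between first and second basal ones. The pairing comes from this check, since the labels give only a shared number. Alternatives were other scalings, pseudocounts and level filters, leaving out a sample, and the number as a block.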

Additional observations from a re-analysis of the deposited data

How the results depend on the processing

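The Merkel minus basal difference of Neat1 stayed between −3.06 and −2.65 over all alternatives, that of Malat1 between −1.61 and −1.21, Sfpq between −0.94 and −0.58, Pspc1 between −0.36 and −0.06 and Rbm14 between −0.44 and −0.20; Nono (−0.19 to 0.13) and Hnrnpk (−0.16 to 0.13) changed sign. Merkel cells had 938 genes called higher and 729 lower. The higher count was 377 with a pseudocount of 5 and 486 with a filter at 5 TPM; the lower count was 454 with median-ratio scaling, 1281 with a pseudocount of 0.1, 186 with a pseudocount of 5 and 449 with the 5 TPM filter. Higher genes were 56.3% of calls, 70.1% with median-ratio scaling, 67.0% with a pseudocount of 5, 51.1% with quantile normalization and 48.2% with a pseudocount of 0.1 (1191 higher). Leaving out a sample gave 877 to 1007 higher and 594 to 870 lower. Second against first basal libraries had 87 genes called higher and 404 lower: 181 and 25 higher with pseudocounts of 0.1 and 5, 43 higher and 215 lower without a filter, 212 lower with a pseudocount of 5 and 130 lower with the 5 TPM filter. Without 1 number the counts ranged from 0 to 123 higher and from 0 to 525 lower; both were 0 without number 1, and without number 2 they were 123 and 525. The Neat1 difference between second and first was −0.17 without number 2, the lowest, and 0.37 without number 1, the highest. With the sample number as a replicate block, the counts were 960 and 759, and 103 and 444; apart from the adjusted p of Nono and Sfpq and the list counts given above, the block changed no call of the 7 genes. Without read totals, low levels such as those of Kcnq1ot1 have no counting error here.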

Other observations

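Transcripts that overlap the 7 genes were listed as rows of their own. Gm12940, on the same strand as Sfpq and across its 3′ end, was at 4.45, 3.8 and 2.95 TPM in Merkel libraries 1 to 3, 27.6, 17.6 and 25.6 TPM in first basal libraries and 30.9, 15.2 and 27.1 TPM in second ones. The groups did not overlap, and number 2 was the lowest basal number, as for Sfpq; this row was singled out after its values were seen, and how the authors' counting divided reads between the 2 genes is not given.

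Gm27533, a small RNA row inside Neat1 on the same strand, was listed at 10.2, 1.14 and 0 TPM in Merkel, 0, 17.7 and 0 TPM in first basal and 0, 39.9 and 15.8 TPM in second basal libraries. Both libraries of basal number 2 held it, and the first of them was the lowest basal library for Neat1 (70.3 TPM) while the second was among the highest (124 TPM). Gm37376, on the opposite strand within Malat1, was listed at 41.9 TPM in second basal library 1, at 2.28 TPM in Merkel library 1 and at 0 in the other 7 libraries. Gm21992, which reads through Rbm14, was at 8.84 to 11.8 TPM in Merkel and 7.29 to 14.0 TPM in basal libraries.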
